A study of Mus musculus with 8 samples.

Results

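Carbonic anhydrases were followed across 8 mouse colonic tumors, each measured on 1 expression array. The 9 genes were Car1, Car2, Car3, Car4, Car8, Car9, Car12, Car13 and Car14, taken by symbol from the 19938 genes of the array that had a probe set with exactly 1 gene symbol, and each was read by a single such probe set. The study set 3 serrated tumors of the proximal colon, genotype K-rasG12Dint/Ink4a/Arf-/-, against azoxymethane (AOM) tumors of the distal colon. AOM is a chemical carcinogen of the colon. Of the AOM tumors, 3 were of genotype K-rasG12Dint (here K-rasG12D AOM) and 2 of genotype LSL-K-rasG12D/+ (here LSL AOM), so that a K-rasG12D allele is named in all 3 groups. An LSL (lox-stop-lox) allele is not expressed unless a recombinase has cut out its stop element, and the titles of those samples call them wt. Ink4a/Arf encodes inhibitors of cell division. The labels name no recombinase driver and no age, and they do not say whether animals were pooled. Serrated and AOM tumors differ at once in colon segment, AOM exposure, Ink4a/Arf genotype and tumor type, which cannot be told apart, and no normal colon was analysed here.

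Carbonic anhydrases turn carbon dioxide and water into bicarbonate and a proton, and back. In the colon they feed the exchangers of the surface epithelium that trade chloride for bicarbonate and sodium for protons. The family is usually split by place: cytosolic enzymes (Car1, Car2, Car3, Car13), an enzyme tied to the outer cell surface by a lipid anchor (Car4), and enzymes that span the membrane with the active site outside (Car9, Car12, Car14). Car8 has the fold of the family without the enzyme activity.

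Serrated tumors had higher levels than AOM tumors for Car12, Car9 and Car1. Those 3 of the 9 genes passed the test, all higher, and 6 did not pass. Among all genes tested, 3.62% were called higher in serrated tumors, and 5.76% were called lower. The log2 difference was positive for all 9 genes, with a median of 1.37, against a median of 0.04 over all genes. Levels are deposited log2 signals, differences are on the log2 scale, and adjusted p-values come from limma with Benjamini-Hochberg adjustment over all genes, with 0.05 as the threshold. The genes were proposed with earlier results of these data known, so counts over them are descriptions.

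**Figure D1:**
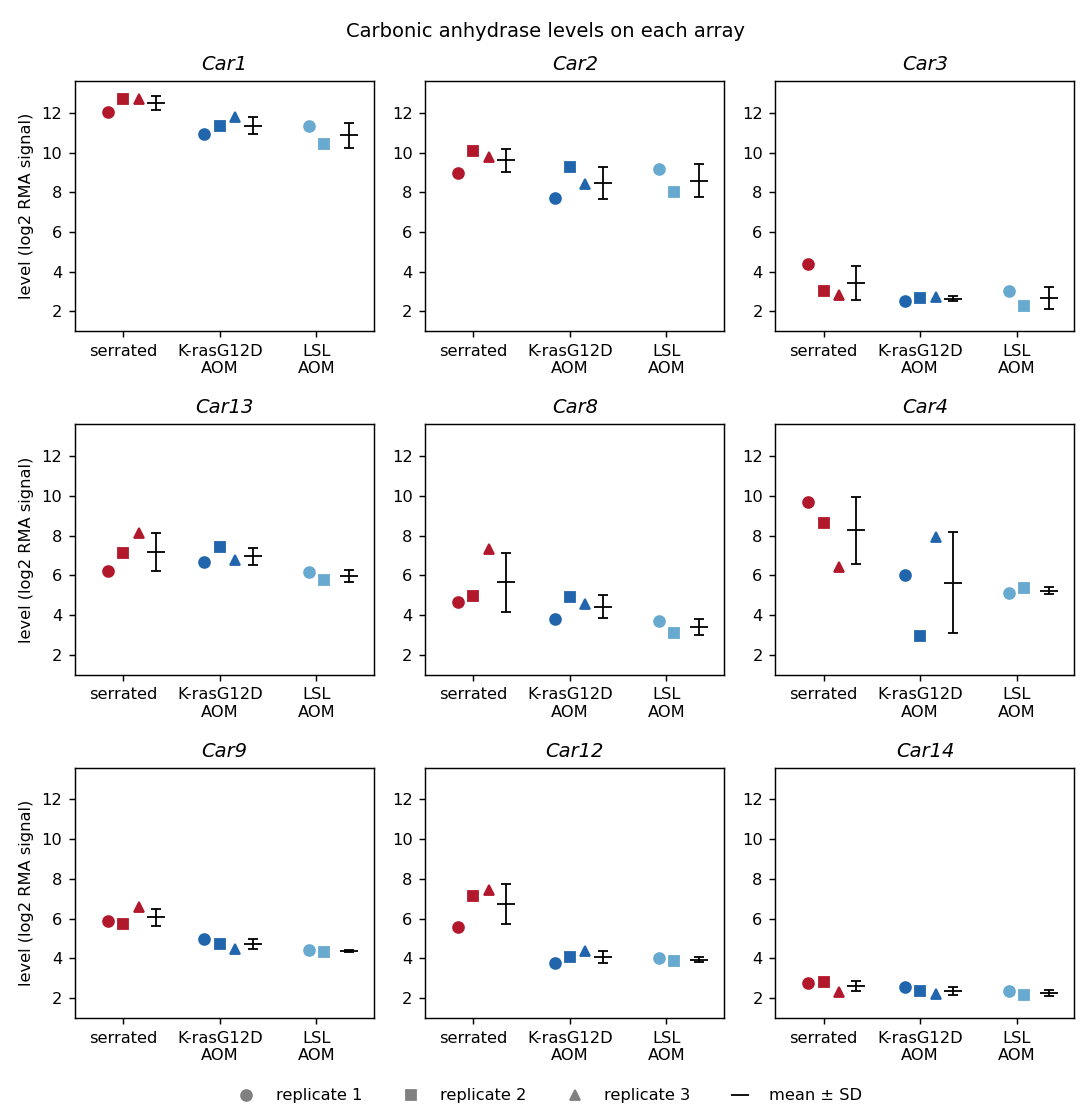
Level of each carbonic anhydrase on each array (y axis, log2 signal, same scale in all panels) by tumor group (x axis), with symbols for replicates and a bar for the group mean ± SD. Serrated symbols lie above all AOM symbols for Car1, Car9 and Car12 and overlap them for the other 6 genes.

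Across the arrays, epithelial and colon identity markers fitted the labelled tissue: the 8 measured (Epcam, Cdh1, Vil1, Krt8, Krt18, Krt19, Cdx1 and Cdx2) lay above the median gene on every array. Levels on serrated replicate 1 were less spread than elsewhere (SD over all genes 1.77, with 2 to 2.13 on 7 arrays), and carbonic anhydrase calls that change without it are given with each gene. The labels do not say that replicates are separate animals. The p-values thus reflect only how far these arrays scatter, with differences between tumors and technical differences together. In bulk tumors, fewer cells of a type and less RNA per cell cannot be told apart.

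The membrane enzymes with an outward active site are described first. Car9 is a well-known target of the hypoxia-inducible factor HIF, and it is also present in the lining of the stomach. The promoters of Car9 and Car12, which are among the genes that rose, are shown because HIF binds the core ACGTG or GCGTG. RefSeq promoter windows (build GRCm38.p6, 250 bases before to 50 after the annotated start, 300 bases in all) were matched for 4 of the 9 genes: Car4, Car9, Car12 and Car14. The Car9 window is chr4:43506776-43507075 and the Car12 window chr9:66713436-66713735, both on the plus strand. Capitals mark a match to either core on either strand.
Car9: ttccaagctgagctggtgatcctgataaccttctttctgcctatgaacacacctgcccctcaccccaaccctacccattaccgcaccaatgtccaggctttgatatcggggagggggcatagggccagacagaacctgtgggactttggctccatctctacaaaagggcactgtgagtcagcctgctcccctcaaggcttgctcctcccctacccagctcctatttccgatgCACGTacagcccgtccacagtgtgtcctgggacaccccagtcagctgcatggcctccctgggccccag
Car12: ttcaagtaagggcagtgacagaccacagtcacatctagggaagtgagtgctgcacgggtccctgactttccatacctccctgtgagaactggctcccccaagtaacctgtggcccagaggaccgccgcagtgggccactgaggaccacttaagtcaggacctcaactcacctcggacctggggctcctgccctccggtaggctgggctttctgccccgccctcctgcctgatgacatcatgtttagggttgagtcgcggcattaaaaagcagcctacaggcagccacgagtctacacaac
The Car9 window held ACGTG on the opposite strand, its match beginning 18 bases before the start, and the Car12 window held neither core. Of the other windows, those of Car4 and Car14 also held ACGTG on the opposite strand, and GCGTG was found in none of the 4. Over all 32851 promoter windows of that length, 19.6% held ACGTG and 32.4% held GCGTG on either strand. A match describes these letters only.

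Car9 had levels of 5.86, 5.74 and 6.57 in the 3 serrated tumors, against 4.99, 4.73 and 4.46 in K-rasG12D AOM tumors and 4.40 and 4.33 in LSL AOM tumors. Every serrated tumor stood above every AOM tumor, which 7.24% of all genes also showed in that direction. The mean was 6.06 ± 0.45 in serrated tumors (SD, n = 3) and 4.58 ± 0.27 over all AOM tumors (SD, n = 5). Car9 rose by 1.51 ± 0.22 (SE), 2.86-fold, with a limma adjusted p of 0.00498. The call held without each array in turn (adjusted p of 0.00368 to 0.0246). Against K-rasG12D AOM tumors alone Car9 rose by 1.33 ± 0.25 (adjusted p = 0.0164), and the call was lost without K-rasG12D AOM replicate 2 (1.34, adjusted p = 0.0741) or replicate 3 (1.2, 0.0590). Against LSL AOM tumors alone it rose by 1.70 ± 0.27 (0.0122), a call lost without LSL AOM replicate 1 (1.73, 0.0916) or replicate 2 (1.66, 0.0989).

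Car12, a transmembrane enzyme found at the basolateral side of colon epithelium in humans, was 5.59, 7.15 and 7.46 in serrated tumors, against 3.74, 4.07 and 4.38 in K-rasG12D AOM and 4.01 and 3.86 in LSL AOM tumors. The AOM tumors lay within 0.64 of each other, close to the median gene of an array, while serrated replicate 1 stood below the other serrated tumors. Serrated tumors averaged 6.74 ± 1.0 (SD, n = 3) for Car12, and all AOM tumors 4.01 ± 0.24 (SD, n = 5). Car12 rose by 2.74 ± 0.39 (SE), 6.67-fold, with a limma adjusted p of 0.00442. The call held without each array in turn, with differences of 2.38 to 3.31 and adjusted p of 0.000104 to 0.0278. The SD was larger among serrated than among AOM tumors, and the fit uses 1 spread for all groups. Car12 also rose against each AOM group alone, by 2.67 ± 0.43 over K-rasG12D AOM (0.0102) and by 2.80 ± 0.48 over LSL AOM tumors (0.0149). The second of these calls was lost without serrated replicate 2 (2.59, adjusted p = 0.0570), LSL AOM replicate 1 (2.88, 0.104) or LSL AOM replicate 2 (2.73, 0.120), and in a fit of only those groups (2.80, 0.0595).

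Car14, a transmembrane enzyme best known from kidney, liver and brain, was dim on every array, between 2.13 and 2.79, in the lowest 25.8% of genes. Its difference of 0.32 (95% interval -0.07 to 0.71, adjusted p = 0.293) did not pass.

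Car4, a surface-anchored enzyme of the colonocyte brush border, was the most variable of the 9 genes. It stood at 9.71, 8.63 and 6.43 in serrated tumors, against 5.99, 2.92 and 7.95 in K-rasG12D AOM tumors and 5.10 and 5.36 in LSL AOM tumors. K-rasG12D AOM replicate 3 lay above serrated replicate 3, and K-rasG12D AOM replicates 2 and 3 were 5.04 apart. Car4 differed by 2.83 ± 1.07 (SE, 95% interval 0.40 to 5.26) between serrated and all AOM tumors, with an unadjusted p of 0.0271 and an adjusted p of 0.141 in limma, so it did not pass. Without serrated replicate 3 it did pass (3.74, adjusted p = 0.0444). Slc26a3, the colonic exchanger of chloride for bicarbonate, was 8.73, 9.43 and 8.99 in serrated tumors, 4.73, 2.13 and 7.02 in K-rasG12D AOM and 4.48 and 3.92 in LSL AOM tumors. Both genes were lowest on K-rasG12D AOM replicate 2 and, among AOM tumors, highest on K-rasG12D AOM replicate 3.

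The cytosolic genes Car13, Car1, Car3 and Car2 follow each other in this order among the coding genes of the RefSeq annotation, and only Car1 of them passed the test. Car1, abundant in colon epithelium and red blood cells, stood at or above the percentile of 99.8 among genes on every array. Its level was 12.06, 12.70 and 12.70 in serrated tumors, against 10.95, 11.34 and 11.79 in K-rasG12D AOM and 11.32 and 10.42 in LSL AOM tumors. The serrated tumors did not overlap either AOM group. Car1 rose by 1.37 ± 0.28 (SE), 2.59-fold, with a limma adjusted p of 0.0197. The call was lost without serrated replicate 2 (1.26, adjusted p = 0.0943) or LSL AOM replicate 2 (1.15, 0.0639). Against LSL AOM tumors alone Car1 rose by 1.62 ± 0.35 (0.0319). That call was lost in a fit of only those groups (adjusted p = 0.0809) and without serrated replicate 2 (1.51, 0.108), K-rasG12D AOM replicate 2 (1.62, 0.0591), LSL AOM replicate 1 (2.07, 0.0624) or LSL AOM replicate 2 (1.17, 0.232). Against K-rasG12D AOM tumors alone the difference of 1.13 ± 0.31 did not pass (0.0675). It passed without serrated replicate 1 (1.34, adjusted p = 0.0401), with the dimmest 40% of genes left out (0.0469), with trend and robust options (0.0410), and with array weights (1.47, 0.000144) or gene-by-gene weights (1.42, 0.00322).

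Car2, the fast and widespread cytosolic enzyme, was 8.95, 10.07 and 9.79 in serrated tumors, against 7.69, 9.26 and 8.44 in K-rasG12D AOM and 9.17 and 7.99 in LSL AOM tumors. Serrated replicate 1 lay below an AOM tumor of each group. The difference of 1.09 ± 0.42 (95% interval 0.14 to 2.04) did not pass, with an unadjusted p of 0.0294 and an adjusted p of 0.147 in limma. Among the 36 pairs of the 9 genes, Car1 and Car2 ran closest over the 8 arrays, with a root mean square difference of 0.46 once each was centred on its own mean. Car1 and Car9 (0.47) and Car3 and Car14 (0.48) were nearly as close.

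Car13 was 6.24, 7.13 and 8.15 in serrated tumors, against 6.65, 7.44 and 6.76 in K-rasG12D AOM and 6.18 and 5.75 in LSL AOM tumors. Serrated and K-rasG12D AOM tumors overlapped, and both lay above LSL AOM tumors on every array. In limma none of these differences passed: 0.22 ± 0.44 for serrated minus K-rasG12D AOM (adjusted p = 0.796), 1.21 ± 0.49 for serrated minus LSL AOM (0.205) and 0.99 ± 0.49 for K-rasG12D AOM minus LSL AOM tumors (0.673). Without serrated replicate 1 the difference between serrated and LSL AOM tumors passed (1.68, adjusted p = 0.0336).

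Car3, an enzyme of muscle, fat and liver, was 4.39, 3.04 and 2.85 in serrated tumors, against 2.52, 2.68 and 2.73 in K-rasG12D AOM and 3.05 and 2.29 in LSL AOM tumors. It was below the median gene on 7 of the 8 arrays, and serrated replicate 1 stood apart from the rest. The difference of 0.77 ± 0.35 (95% interval -0.02 to 1.56) did not pass (adjusted p = 0.211), and it was 0.29 without serrated replicate 1. On that same array the 8 smooth muscle markers had a mean level of 6.32, against 5.36 and 5.31 on the other serrated tumors, 4.93 to 5.67 in K-rasG12D AOM and 5.07 to 6.01 in LSL AOM tumors. Skeletal muscle markers (10 genes) averaged 3.48 there and 3.28 and 3.05 on the other serrated tumors, and 3.17 to 3.35 in AOM tumors. The 9 adipocyte markers averaged 3.98 on serrated replicate 1, 3.92 and 3.59 on the other serrated tumors, 3.39 to 3.55 in K-rasG12D AOM and 3.17 and 3.28 in LSL AOM tumors. Red blood cell (3.32) and gastric parietal cell markers (3.6) also had their highest mean of the 8 arrays on serrated replicate 1, so this was not particular to muscle. Levels over all genes were also less spread on that array (SD 1.77, with 2 to 2.13 on the other 7 arrays). The part of these cell types and of that smaller spread in the Car3 level was not tested.

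Car8, which binds an inositol trisphosphate receptor of the endoplasmic reticulum and is best known from cerebellar neurons, was 4.65, 4.94 and 7.34 in serrated tumors, against 3.78, 4.92 and 4.53 in K-rasG12D AOM and 3.69 and 3.10 in LSL AOM tumors. Serrated replicate 3 stood furthest above the mean of both AOM group means, by 3.44, against 0.75 and 1.04 for serrated replicates 1 and 2. The difference between serrated and all AOM tumors was 1.74 ± 0.58 (95% interval 0.43 to 3.05), with an adjusted p of 0.0975, and it did not pass. Without serrated replicate 3 the difference was 0.90 (adjusted p = 0.0755). Against LSL AOM tumors, Car8 differed by 2.25 ± 0.72 (adjusted p = 0.111), and without serrated replicate 3 it passed with a smaller difference (1.40, adjusted p = 0.0418).

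**Figure D2:**
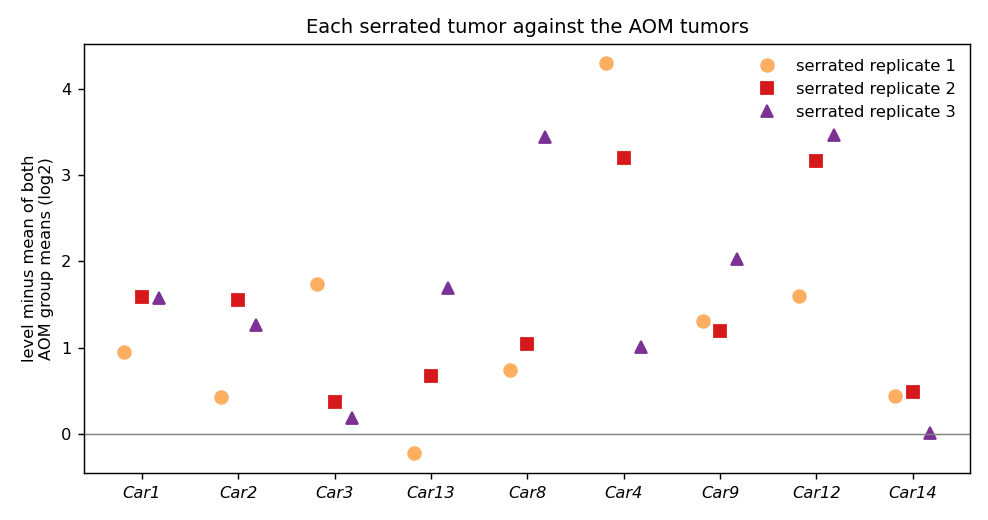
Level of each carbonic anhydrase (x axis) on each of the 3 serrated tumors minus the mean of both AOM group means (y axis, log2), with a symbol for each serrated replicate. Car4 and Car3 were highest on replicate 1, and Car8, Car9, Car12 and Car13 were highest on replicate 3.

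The serrated tumors differed in which genes were high. Serrated replicate 3 minus replicate 1 was 2.69 for Car8, 1.91 for Car13 and 1.87 for Car12. The difference was 0.84 for Car2, 0.71 for Car9 and 0.63 for Car1. The sign was opposite for Car4, with -3.28, for Car3, with -1.54, and for Car14, with -0.42. Car13 on replicate 1 was the only serrated value of a member below the mean of the AOM group means. These are single arrays, so the differences have no replicate check. The 9 gastric surface cell markers also differed between these arrays, with mean levels of 6.47, 10.44 and 10.21 on serrated replicates 1, 2 and 3, and among serrated tumors Car1, Car2, Car8, Car12 and Car13 were also lowest on replicate 1. Their part in these levels was not tested.

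The comparisons with serrated tumors share those arrays and are given side by side. Against K-rasG12D AOM tumors alone, 2 of the 9 genes passed, both higher, where 2.46% of all genes were called higher. Against LSL AOM tumors alone, 3 passed, all higher, where 2.31% of all genes were called higher. Serrated tumors lay above K-rasG12D AOM tumors without overlap for 4 of the 9 genes (12% of all genes) and above LSL AOM tumors for 6 of the 9 (15.6% of all genes).

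The comparison of K-rasG12D AOM with LSL AOM tumors asks what the K-rasG12Dint genotype goes with when carcinogen and colon segment are shared. None of the 9 genes passed in limma, none had an unadjusted p under 0.05, and 0% of all 19938 genes were called in either direction. Over all genes, 8.36% had an unadjusted p under 0.05. The median difference over the 9 genes was 0.36, against 0.01 over all genes. K-rasG12D AOM tumors lay above LSL AOM tumors on every array for 3 of the 9, Car8, Car9 and Car13, as did 16.4% of all genes. The intervals were wide: Car1 differed by 0.49 (95% interval -0.30 to 1.28), Car2 by -0.11 (-1.29 to 1.07), Car9 by 0.36 (-0.26 to 0.98) and Car4 by 0.39 (-2.62 to 3.40). These do not show that the genes were alike in both groups.

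**Figure D3:**
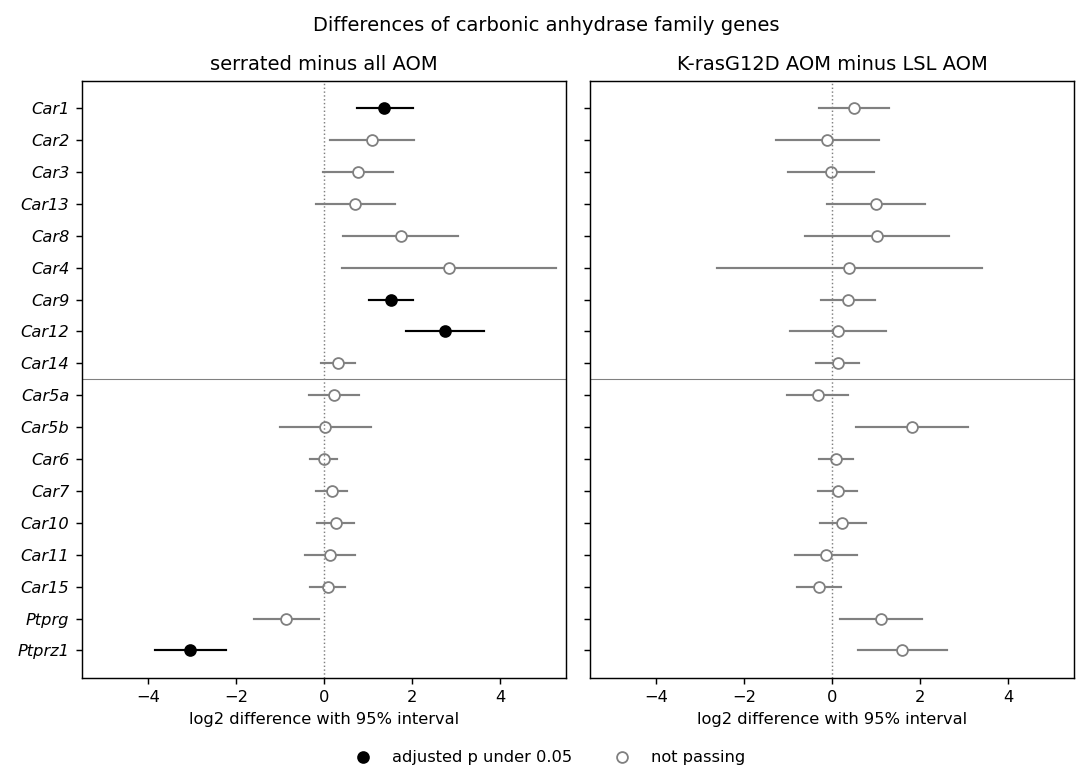
Log2 difference with its 95% interval (x axis) for the 9 carbonic anhydrases above the line and 9 further family genes below it, for serrated minus all AOM tumors on the left and K-rasG12D AOM minus LSL AOM tumors on the right. Filled symbols passed the test: Car1, Car9 and Car12 were higher and Ptprz1 lower in serrated tumors, and no gene passed on the right.

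Other members of the family are given next. Of 9 further genes measured, none was called higher and 1 was called lower in serrated tumors, with a median difference of 0.08. The mitochondrial Car5a, secreted Car6, cytosolic Car7, the enzymatically inactive Car10 and surface-anchored Car15 were below the median gene on all 8 arrays. Car11, which is also inactive, lay between 3.97 and 5.10, and its difference was 0.13 (adjusted p = 0.779). Mitochondrial Car5b was 2.71, 4.12 and 5.05 in serrated tumors, 4.37, 5.14 and 4.99 in K-rasG12D AOM and 3.12 and 2.93 in LSL AOM tumors. K-rasG12D AOM tumors were above LSL AOM tumors in this gene by 1.81 ± 0.56, with an unadjusted p of 0.0111 and an adjusted p of 0.399, which did not pass. Serrated minus LSL AOM was 0.93 ± 0.56 for Car5b (adjusted p = 0.406), and it passed without serrated replicate 1 (1.56, 0.0317) and with array weights (1.09, 0.0187). Serrated minus K-rasG12D AOM was -0.87 ± 0.51 (0.361), and it passed without serrated replicate 3 (-1.42, 0.0449) and with array weights (-0.57, 0.0357).

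Ptprz1, a receptor tyrosine phosphatase whose outer part folds like a carbonic anhydrase, was the gene that fell. It was 2.62, 2.67 and 3.85 in serrated tumors, against 7.14, 7.19 and 6.30 in K-rasG12D AOM and 4.84 and 5.73 in LSL AOM tumors, with no overlap between the 3 groups. Ptprz1 fell by 3.04 on the log2 scale (SE 0.36, adjusted p = 0.00195), and the call held without each array in turn (adjusted p of 0.000899 to 0.0145). Its relative Ptprg differed by -0.86 ± 0.33 (adjusted p = 0.143), which passed without serrated replicate 3 (-1.2, 0.0275). Against K-rasG12D AOM tumors alone Ptprg differed by -1.41 ± 0.36 (adjusted p = 0.0548), which passed without serrated replicate 1 (-0.96, 0.0381) or replicate 3 (-1.75, 0.0110), after quantile normalization (-1.30, 0.0313), with the dimmest 40% of genes left out (0.0347), with trend and robust options (0.0420) and with both kinds of array weights (0.000121 and 0.00245). Between the AOM groups, Ptprz1 differed by 1.59 ± 0.45 and Ptprg by 1.10 ± 0.41, with adjusted p of 0.350 and 0.492.

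Carbonic anhydrases work beside transporters of bicarbonate, protons and lactate. Of 26 such genes measured, 4 rose, 1 fell and 21 did not pass in serrated tumors, with a median difference of 0.27. Slc9a2, an exchanger of sodium for protons, was 8.90, 9.43 and 9.03 in serrated tumors, against 6.19, 5.5 and 6.34 in K-rasG12D AOM and 5.26 and 4.98 in LSL AOM tumors. It rose by 3.55 ± 0.23 (adjusted p = 0.000132). Slc26a3 rose by 4.64 ± 0.88 (0.0145), a call lost without serrated replicate 2 (4.44, adjusted p = 0.0739), LSL AOM replicate 1 (4.78, 0.0504) or LSL AOM replicate 2 (4.50, 0.0568). Slc4a4, which carries sodium and bicarbonate, was 5.07, 6.41 and 6.37 in serrated tumors, against 4.70, 5.94 and 5.73 in K-rasG12D AOM and 3.48 and 3.34 in LSL AOM tumors, so that serrated and K-rasG12D AOM tumors overlapped. It rose by 2.54 ± 0.47 over LSL AOM tumors (adjusted p = 0.0190), while serrated minus K-rasG12D AOM was 0.49 ± 0.42 (0.533) and K-rasG12D AOM minus LSL AOM was 2.05 ± 0.47 (0.269), and neither passed. Over all AOM tumors Slc4a4 rose by 1.52 ± 0.38 (0.0390), but passed only with all arrays or without serrated replicate 1 among the fits that left out an array (otherwise 0.0530 to 0.162). The lactate and proton carrier Slc16a3 fell by 1.17 (adjusted p = 0.00463), while Slc16a1, of the same family, rose by 1.04 ± 0.26 (0.0403).

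Since Car9 is a hypoxia target, other hypoxia response genes were set beside it. Of 19 measured, 4 rose, 2 fell and 13 did not pass, with a median of 0.06 against 0.04 over all genes. Against K-rasG12D AOM tumors 3 rose and 2 fell (median 0.14), and against LSL AOM tumors 6 rose and 1 fell, with 15 of 19 differences positive (median 0.42). For K-rasG12D AOM minus LSL AOM tumors none passed in limma, 14 of 19 differences were positive and the median was 0.44. At an unadjusted p under 0.05 in that comparison, 8 of the 19 were higher and 2 lower, against 8.36% of all genes in either direction. Higd1a, a mitochondrial protein, rose by 2.29 ± 0.18 (adjusted p = 0.000408), Ndrg1 by 1.49 ± 0.23 (0.00623) and the glucose transporter Slc2a1 by 0.90 ± 0.15 (0.00812). P4ha2, a collagen prolyl hydroxylase, fell by 1.04 (0.0280), and it did not pass after quantile normalization (adjusted p = 0.0516), without serrated replicate 2, K-rasG12D AOM replicate 1 or 2 or either LSL AOM array (0.0596 to 0.0915). The mean level of the 19 genes was 7.21 to 7.49 in serrated, 7.21 to 7.41 in K-rasG12D AOM and 6.87 to 6.90 in LSL AOM tumors. The part of hypoxia in the Car9 level was not tested.

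Most absorptive colonocyte markers were also higher in serrated than in AOM tumors. Of 18 measured, none of which is a carbonic anhydrase, 12 rose, 0 fell and 6 did not pass in serrated tumors, with a median of 1.71. The brush border genes Cdhr2 and Cdhr5 rose by 2.29 ± 0.20 (adjusted p = 0.000537) and 1.60 ± 0.17 (0.00120), Tmigd1 by 4.28 ± 0.37 (0.000537) and the protease Mep1a by 4.02 ± 0.45 (0.00143). The summed linear signal of the list was 12100 to 15900 in serrated, 5060 to 6990 in K-rasG12D AOM and 6200 to 6350 in LSL AOM tumors. Cdx2, a transcription factor of intestinal identity, rose by 2.56 ± 0.27 (0.00130), while the other 7 epithelial and colon markers did not pass. The part of a larger colonocyte share in the carbonic anhydrase levels was not tested.

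**Figure D4:**
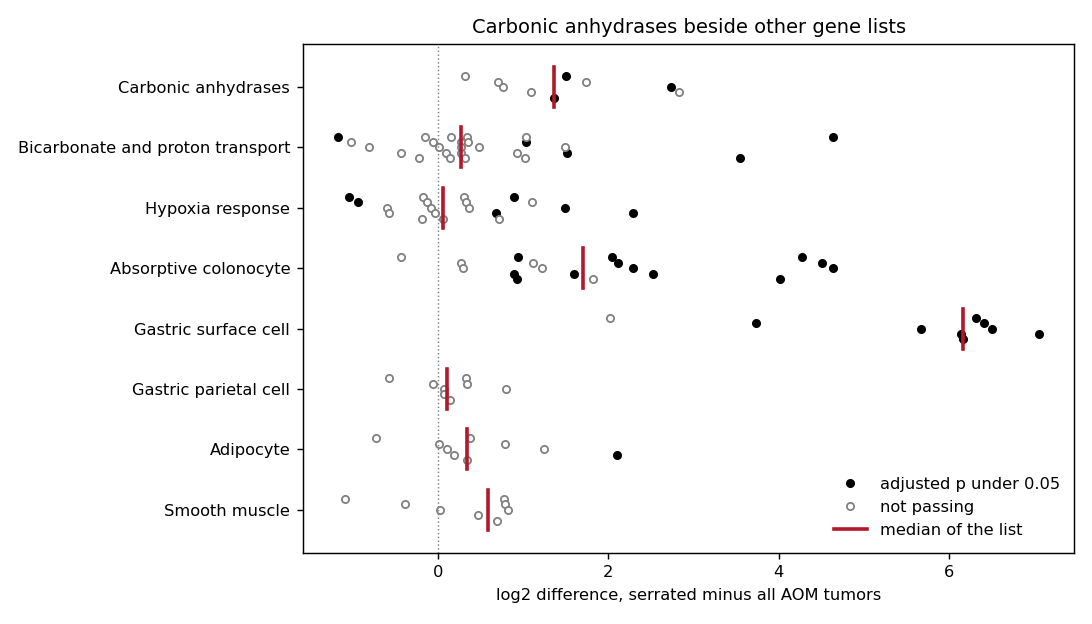
Log2 difference of each gene, serrated minus all AOM tumors (x axis), for the 9 carbonic anhydrases and 7 other gene lists (rows). Filled symbols passed the test and the red line is the list's median, 1.37 for carbonic anhydrases, 1.71 for absorptive colonocyte and 6.16 for gastric surface cell markers.

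Other cell types that hold carbonic anhydrases were checked by their markers. Of the 9 gastric surface cell markers measured, 8 rose, with a median of 6.16, and their summed linear signal was 1320 to 16800 in serrated, 152 to 289 in K-rasG12D AOM and 109 to 118 in LSL AOM tumors. Gkn1, a secreted protein of these cells, was 8.48, 11.74 and 11.10 in serrated tumors, and 3.72 to 4.10 in AOM tumors. Their part in the rise of Car9, Car12 and Car1 was not tested. Gastric parietal cells use carbonic anhydrase to make acid, and none of their 8 markers passed in limma. At an unadjusted p under 0.05, 1 was higher and 1 lower, against 24.7% of all genes in either direction. On every array, 7 of the 8 were below the median gene. The acid pump genes Atp4a and Atp4b ran from 3.14 to 3.92 and from 3.21 to 3.85 in serrated tumors, and from 3.55 to 3.70 and from 3.21 to 3.58 in AOM tumors.

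Red blood cells, rich in Car1 and Car2, were covered by only 4 of 13 listed markers, Alas2, Epb42, Rhag and Slc4a1, since the other 9, hemoglobin genes among them, had no probe set with a single gene symbol under the listed name. All 4 were below the median gene on 7 of the 8 arrays, and 3 were on serrated replicate 1. Their summed linear signal was 24.0 to 46.4 in serrated, 31.6 to 34.8 in K-rasG12D AOM and 24.0 to 28.4 in LSL AOM tumors. The part of red blood cells in the Car1 and Car2 levels was not tested. Of the 9 adipocyte markers, Cidec rose, by 2.10 ± 0.23 (adjusted p = 0.00135), and 8 did not pass. At an unadjusted p under 0.05 in limma, 3 of the 9 were higher and 0 lower, against 24.7% of all genes in either direction. Fabp4 (0.79, adjusted p = 0.0588) and Pck1 (1.25, 0.0595) came closest to the threshold among the 8. Both passed after quantile normalization (0.0309 and 0.0423), with the dimmest 40% of genes left out (0.0449 and 0.0381) and with array weights (0.00021 and 5.02e-05). Adipoq, the defining gene of that list, was 2.04 to 2.33 in serrated and 1.75 to 2.21 in AOM tumors, dim throughout. None of the 8 smooth muscle and none of the 10 skeletal muscle markers passed in this comparison in limma. At an unadjusted p under 0.05, 1 smooth muscle marker was higher and 2 lower, and 1 skeletal muscle marker was lower. Over all genes, 24.7% had such a p-value in either direction.

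Genes of most similar pattern were sought for the 8 members whose range over the arrays exceeded 2, as the smallest root mean square difference over the 8 arrays after each gene was centred on its own mean. Car1 was closest to the lipid flippase Atp8a2 (0.16) and Car13 to Capn6 (0.21). Car9 was closest to Duox2 (0.23), an oxidase of mucosal surfaces, and then to Tmem150b (0.23) and the glycosyltransferase B3gnt6 (0.25). Car12 was closest to the lipid transporter Abca12 (0.27), which stood at 5.07, 6.63 and 6.65 in serrated tumors and between 2.71 and 3.19 in AOM tumors. Like Car12, Abca12 was lower on serrated replicate 1 than on the other serrated arrays. The distance was larger for Car2, closest to Slc16a1 (0.34), for Car8, closest to the chitinase Chit1 (0.46), and for Car4, closest to Saa1 (0.95), a serum amyloid gene. Car3 was closest to the odorant receptor Olfr586 (0.17), which was dim as well. Distances are smaller for genes that vary less, and the arrays of a group share their tumor type, so these are descriptions.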

How the data were processed

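Total RNA of 8 tumors was hybridised to 1 array each. The deposited values are log2 signals per probe set, and the submitters' processing notes name GCOS and RMA (robust multi-array average). Their versions and settings are not named in the labels. Values ran from 0.564 to 13.5 over 35557 probe sets. Of these, 21789 had exactly 1 gene symbol in GEO's platform annotation, and the brightest on average was kept where a gene had several, giving 19938 genes. No gene was filtered out and no value was rescaled.

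Groups followed the genotype labels. A single limma fit (limma 3.58.1, R 4.3.3) of 3 group means over 8 arrays, with 5 residual degrees of freedom, gave all comparisons, and all AOM tumors means the unweighted mean of both AOM group means. P-values were two-sided and adjusted over all genes by the Benjamini-Hochberg method. An error beside a difference is its standard error (SE). The number of arrays limits the precision. The fit was tested on simulated data in which each gene had the same spread in every group. That does not check the fit where groups differ in spread, as they did for Car12. Leaving out an LSL AOM array left 1 array there, assumed to vary like the other groups.

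Members and 11 lists of other genes (142 entries, 128 measured) were chosen with earlier results of these data known. From each list, up to 4 genes with the smallest adjusted p in serrated against all AOM tumors were named, along with all further family genes, the most abundant markers set beside a member and the nearest genes in pattern. Slc16a1 among the transporters, and Adipoq, Atp4a and Atp4b as defining markers, fall outside this rule and were named after their values were seen. Alternatives were quantile normalization, median centring, a filter on dim genes, array weights, trend and robust options, the mean of all probe sets, only the arrays compared, and leaving out each array.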

Additional observations from a re-analysis of the deposited data

How the results depend on the processing

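Car12 and Car9 were called higher in serrated than in all AOM tumors under every alternative run, and Car1 was under all but leaving out serrated replicate 2 or LSL AOM replicate 2. The number of the 9 genes called was the same as in the fit of all arrays after quantile normalization and median centring. It was also the same with the mean of all probe sets, which cannot check these genes. Each of the 9 had 1 such probe set, so their own values did not change. The number called was 3 against K-rasG12D AOM tumors, Car1 added, with the dimmest 40% of genes left out and with trend and robust options. Array weights gave serrated replicate 2 a weight of 25.6 against 0.168 and 0.251 for the other serrated arrays, and then 9, 7 and 8 of the 9 genes were called in serrated against all, K-rasG12D and LSL AOM tumors. Gene-by-gene weights, chosen after seeing the data, gave it 3.16 and called 6, 4 and 5. With only the arrays compared, 1 was called against LSL AOM tumors. Leaving out each array gave 2 to 4, 1 to 3 and 0 to 4 calls in the same order, and 0 between the AOM groups. The cause was not tested.

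Some differences that did not pass changed sign. For serrated minus all AOM tumors, Car5b was -0.09 and Alas2 -0.02 after quantile normalization, Car6 0.05 after median centring, and Car15 -0.06 and -0.04 with array and gene-by-gene weights. Leaving out each array, the difference between serrated and all AOM tumors ran from -0.52 to 0.66 for Car5b, -0.07 to 0.03 for Car6, -0.16 to 0.4 for Car11, -0.03 to 0.18 for Car15, -0.11 to 0.4 for Slc4a1 and -0.15 to 0.33 for Alas2. Car13 ran from -0.27 to 0.69 for serrated minus K-rasG12D AOM tumors, and Ptprg from -0.65 to 0.14, with the other sign than the rest only without serrated replicate 1, for serrated minus LSL AOM tumors. For K-rasG12D AOM minus LSL AOM tumors, Car2 ran from -0.7 to 0.48, Car3 from -0.4 to 0.35, Car4 from -0.77 to 1.74 and Car12 from -0.03 to 0.29. No paired analysis was possible because the labels give groups no shared replicate numbers. Dim genes such as Car14, Car3 and most further family genes limit what the arrays can show.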
